A study of Mus musculus with 30 samples.

Results

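PDS5A and PDS5B depletion was measured in 6 of the 30 RNA-seq libraries of a study of cohesin cofactors in mouse embryonic stem cells. All 6 came from the engineered line EN293.1 (called the PDS5AB line here), an E14 derivative of XY karyotype on the 129P2/Ola background whose genotype is given as PDS5A-AID, PDS5B-AID and Tir1. The members were the libraries titled as PDS5AB-AID: 3 from cells left untreated and 3 from cells kept for 24 h in auxin (indole-3-acetic acid) at 500 µM. Both groups therefore carry the degron tags and Tir1, and both were grown with serum, leukemia inhibitory factor, PD0325901 (an inhibitor of the kinase MEK) and CHIR-99021 (an inhibitor of the kinase GSK3) on gelatin. The control for auxin itself is the TIR1 line (EN148.10), which expresses Tir1 with no tagged cofactor, again as 3 untreated and 3 auxin-treated libraries. Each genotype is represented by a single line, and no label says whether replicates came from separate cultures, so the p-values below measure the spread between these libraries.

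Cohesin is a ring of SMC1A, SMC3 and RAD21 with a STAG subunit that holds sister chromatids together and extrudes loops of chromatin. PDS5A and PDS5B bind RAD21, where they act with WAPL in releasing cohesin from chromatin, compete with the loader NIPBL and help to hold loops at CTCF-bound boundaries. The AID tag, an auxin-inducible degron, is recognised by Tir1, an F-box protein of plants, when auxin is present, after which the tagged protein is destroyed. Embryonic stem cells keep a network of pluripotency factors active and the programs of the embryonic and placental lineages low.

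The 6 libraries held 23764021 to 35410075 counted fragments. Their TMM scaling factors were 1.01 to 1.02 in the untreated group and 1.13 in all 3 auxin libraries, and 27675 to 28293 genes against 28859 to 29350 genes had at least 1 count. Levels are given as CPM, counts divided by the TMM-scaled library size. Pearson's r of log2 CPM between replicates was 0.988 to 0.992. The first principal component of the 6 libraries took 65.8% of the variance and separated treated from untreated. CPM are relative values, so fewer cells of a type and less RNA per cell cannot be told apart. All 7 embryonic stem cell markers checked were present in both groups, and all 7 were lower with auxin. Pou5f1, the factor OCT4, was at 899, 912 and 878 CPM untreated and at 552, 587 and 573 CPM with auxin, Sox2 at 326, 323 and 363 against 123, 138 and 153, and Nanog at 1042, 1284 and 1262 against 627, 757 and 784 (replicates 1 to 3 in each case). The summed level of the 7 markers was 4956 to 5232 CPM untreated and 3044 to 3228 CPM with auxin. Of 12 fibroblast markers, 6 stayed under 1 CPM in all 6 libraries, among them the defining genes Lum, Dcn, Prrx1 and S100a4. Their sum was 71.1 to 84.1 CPM untreated and 117 to 128 CPM treated, most of it from Col5a1. 

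Among the genes called in the PDS5AB line, rises outnumbered falls at low and middle levels with either scaling, whereas falls outnumbered rises at the highest levels with TMM but not with total-count scaling. The excess of rises at low levels has limits. The filter on counts can be passed through a single group, so genes near 0 untreated could enter through the auxin group. Genes near the floor can hardly be called lower. With the 6 libraries fitted alone, 53% of called genes were higher and the median log2 fold change was -0.002. At an adjusted p under 0.05 (edgeR quasi-likelihood test with Benjamini-Hochberg adjustment over 19868 genes), 46% of genes were called, 25.8% higher and 20.2% lower. These shares are the background for list counts from the main fit. With total-count scaling 7082 genes were higher and 2369 lower, and with the replicate number as a block 6098 and 5157. The shares also vary by level, as given below, and the lists differ in level. Median untreated CPM was 91.4 for the cohesin list, 127 for DNA methylation, 321 for glycolysis and 10.1 for solute carriers. A list share near that of its level is no result about the list. Auxin in the TIR1 line gave 19.9% called (10.4% higher and 9.59% lower). Its 2057 higher and 1905 lower genes became 1591 and 2628 with upper-quartile scaling, and 1137 were lower without treated TIR1 replicate 1, 1199 without untreated TIR1 replicate 2 and 1207 without treated TIR1 replicate 3. The difference between the effects in the 2 lines was called for 26.3% of genes, 13.9% with the PDS5AB effect the higher and 12.4% with it the lower, and these 2762 and 2462 genes became 3958 and 1325 with total-count scaling. In the quintile of genes with the lowest mean CPM over the 6 libraries, 16.4% were higher and 3.7% lower. In the second quintile the shares were 33% and 8.33%, and in the third 37.5% and 16.4%. In the fourth they were 25.9% and 27.3%, and in the highest quintile 16% and 45.3%. Under total-count scaling, an alternative by quintile chosen after seeing the data, 20.6% were higher and 2.67% lower in the lowest quintile, 40.6% and 14.7% in the fourth, and 28.7% and 27.8% in the highest. Rises of at least 2-fold made up 10.9% of all genes and falls of that size 2.02%. Such rises included 21.7% of the genes in the second quintile and 0.73% of those in the highest. The highest quintile had a median log2 fold change of -0.15 and the second quintile one of 0.28, against 0.038 over all genes. The balance of directions depended on the scaling: of the called genes, 56.1% were higher with TMM and 74.9% when libraries were scaled by total counts alone, which moved the median of all genes to 0.19. That shift is of the size of the median fall in the highest quintile, and total-count scaling raised the log2 fold change of each of the 245 genes named by rule by 0.152 to 0.156.

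**Figure D1:**
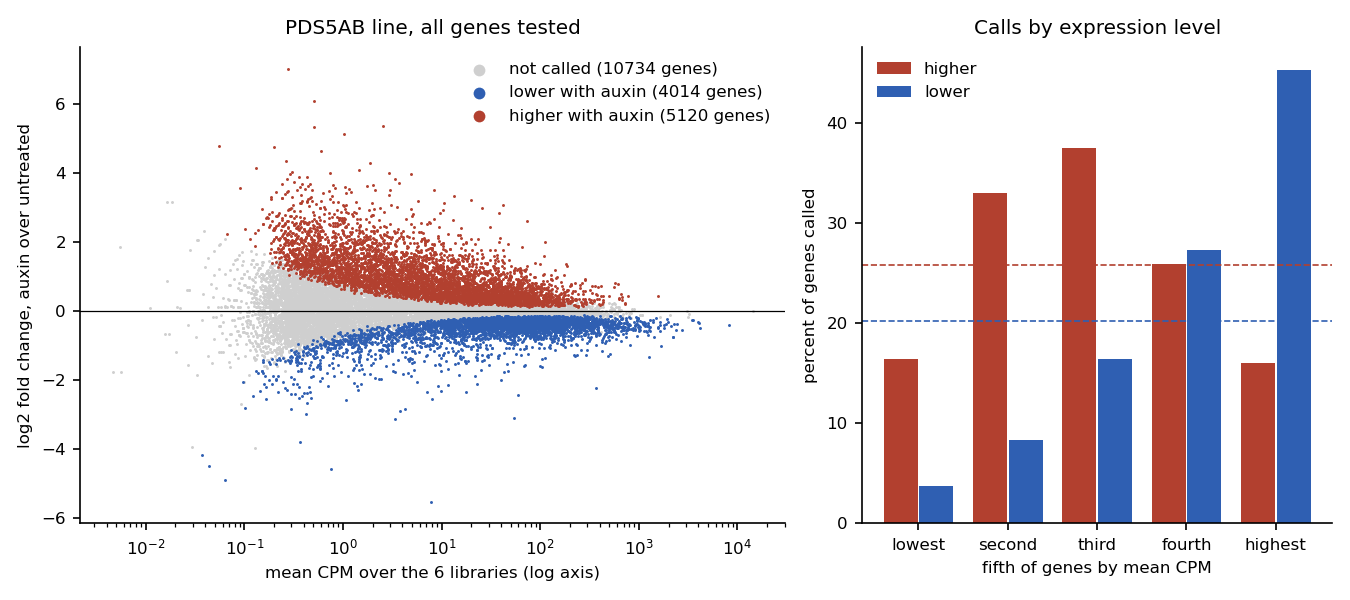
Left, log2 fold change with auxin in the PDS5AB line against mean CPM over the 6 libraries (log axis), 1 point for each of 19868 genes tested, coloured by call. Right, percent of genes called higher or lower in each quintile of mean CPM, with dashed lines at the 25.8% and 20.2% found over all genes. Calls of higher genes peak at 37.5% in the third quintile and calls of lower genes reach 45.3% in the highest.

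Here and below the largest changes are those among called genes with separated groups, an average of 50 counts or more over the 6 libraries and a symbol that is not of a predicted gene or small RNA. Fat4, an atypical cadherin of the planar polarity pathway (chromosome 3, 38886940 to 39011985, + strand, GRCm38 as in the deposited table), was at 0.0674, 0.198 and 0.0828 CPM in untreated replicates 1, 2 and 3 and at 5.11, 4.57 and 5.13 CPM after auxin. The groups stood far apart, with a log2 fold change of 5.38 ± 0.42 (SE) and an adjusted p of 3.47e-10. The 3 untreated values rest on few fragments each. Epn3, an endocytic adaptor of epithelial tissues (chromosome 11, 94489599 to 94499974, - strand), went from 0.674, 0.562 and 0.497 CPM to 12.1, 6.66 and 8.79 CPM, with treated replicate 1 the highest. Chit1, which encodes chitotriosidase, a chitin-degrading enzyme typical of macrophages, had 0.843, 1.62 and 1.57 CPM before and 13.9, 16.2 and 16.3 CPM after treatment. No library of one group reached the other in any of these genes.

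Chst15 was the member of the 12 largest rises with the most untreated signal. Chst15, a sulfotransferase that modifies chondroitin sulfate (chromosome 7, 132235780 to 132317228, - strand), was at 4.38, 3.31 and 3.92 CPM untreated and 36.03, 36.98 and 34.4 CPM with auxin, a log2 fold change of 3.21 ± 0.16 with an adjusted p of 1.94e-15, among the 3 smallest of the genes that rose. Other genes of the 12 largest rises were Wdr72, Ces2f (a carboxylesterase), Cyp1a1, Gbp2 (an interferon-inducible GTPase), the keratins Krt5 and Krt20, and Ighm, the immunoglobulin mu heavy chain constant region. Their log2 fold changes ran from 3.37 for Krt20 to 4.30 for Wdr72. Ces2f moved from 4.00 to 4.66 when untreated replicate 1 was left out, and it rose in every such fit. The other 2 of the smallest p-values among rises belonged to Pik3r3, a regulatory subunit of PI3-kinase, and Gca, a calcium-binding protein. Pik3r3 went from 19.2, 20.7 and 18.7 CPM to 82.4, 70.9 and 71.8 CPM and Gca from 23.1, 23.3 and 24.1 CPM to 62.7, 58.8 and 62.6 CPM, both with narrow groups. Gca overlaps Kcnh7 on the opposite strand, and counting ignored strand, so its value is uncertain.

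Among the largest falls, L1td1, an RNA-binding protein of pluripotent cells (chromosome 4, 98726734 to 98738480, + strand), was at 621, 599 and 593 CPM untreated and 115, 137 and 133 CPM with auxin. The spread within each group was a small part of the gap between them, with a log2 fold change of -2.23 ± 0.085 and an adjusted p of 6.9e-18. Gli2, a transcription factor of Hedgehog signalling (chromosome 1, 118834132 to 119053619, - strand), fell from 71.3, 58.4 and 64.2 CPM to 16.4, 15.6 and 16.6 CPM, with the same adjusted p of 6.9e-18. It was named for its p-value, since its log2 fold change of -1.99 lies outside the 12 largest falls. Slc7a3, a transporter of cationic amino acids on the X chromosome (101079210 to 101086020, - strand), had 87, 102 and 101 CPM before and 10.1, 11.9 and 11.5 CPM after, a log2 fold change of -3.11 ± 0.14. These 3 genes had no overlap between groups and no untreated library that stood apart. Sept1, the third of the smallest p-values among falls, went from 177, 151 and 147.9 CPM to 53.1, 51.5 and 47.8 CPM. It overlaps Zfp553 on the opposite strand, which had a mean of 2760.0 counts per library, so its value is uncertain as well.

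Several other falls varied more among the untreated libraries. Spry4, a feedback inhibitor of receptor tyrosine kinase signalling, was at 27.6, 7.50 and 10.2 CPM untreated and 0.709, 0.0980 and 0.196 CPM treated, with replicate 1 highest in both groups. Its log2 fold change of -5.54 ± 0.48 became -4.78 without untreated replicate 1 and -6.65 without treated replicate 1. Utf1, a chromatin-bound pluripotency factor, was at 143, 76.2 and 81.3 CPM and 24.2, 15.8 and 16.1 CPM, again highest in replicate 1. Dusp6, a phosphatase of ERK, went from 15.6, 8.89 and 11.3 CPM to 3.36, 1.37 and 2.29 CPM. Mobp, best known as a myelin protein of oligodendrocytes, went from 5.26, 8.83 and 8.53 CPM to 0.746, 1.04 and 1.34 CPM. Eras, a RAS-like protein of embryonic stem cells, fell by 2.57 on the log2 scale, Ddx58 (the RNA sensor RIG-I) by 2.36, Inhbb (an activin subunit) by 2.32, Slc6a15 (a neutral amino acid transporter) by 2.18, Enox1 by 2.15 and Foxd3 (a pluripotency and neural crest factor) by 2.13. Groups that do not overlap were a condition of the choice of these 12 genes; over all genes tested, 23.2% had every treated library below every untreated one and 29.6% the reverse.

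**Figure D2:**
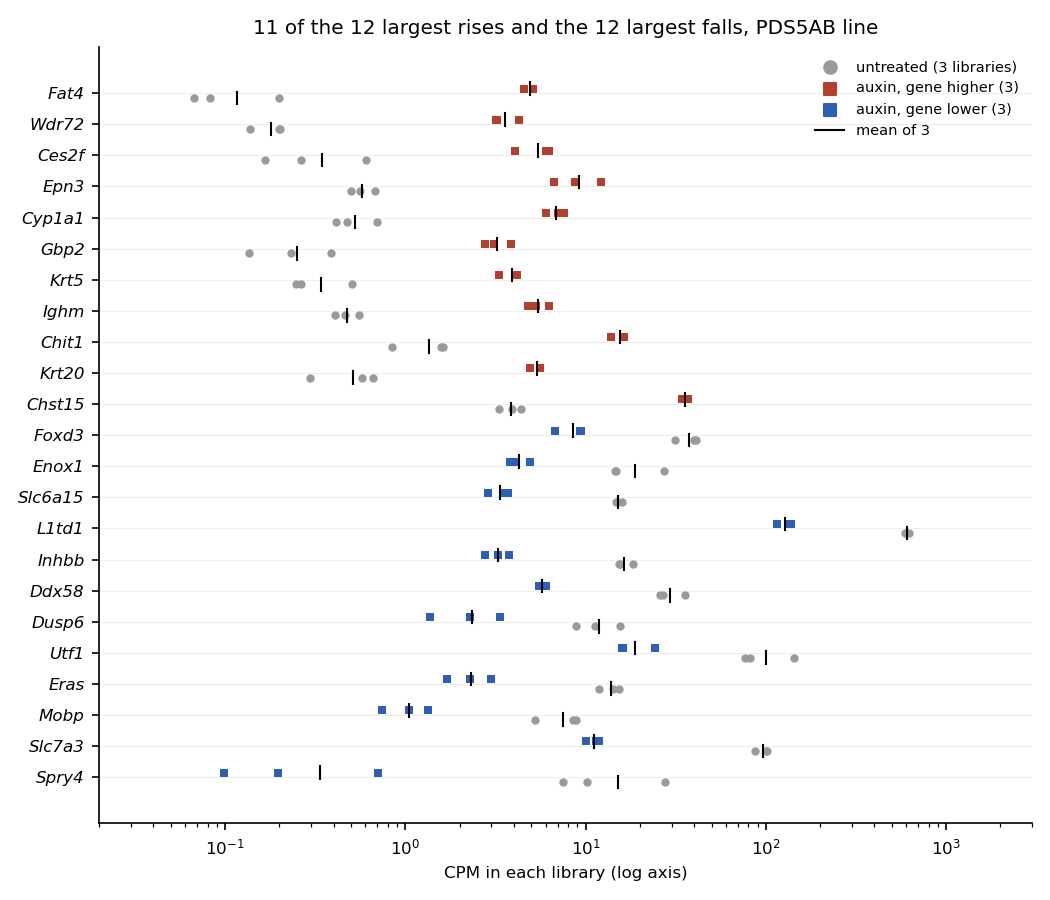
CPM in each library (log axis) for 11 of the 12 genes with the largest rise and the 12 with the largest fall in the PDS5AB line (of called genes averaging 50 counts or more, with separated groups), ordered by log2 fold change. Grey circles are the 3 untreated libraries, red and blue squares the 3 auxin libraries, and black ticks the mean of 3. Means ran from Fat4 (0.116 to 4.94 CPM on average) to Spry4 (15.1 to 0.334 CPM).

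The tagged genes themselves are read at the RNA level, whereas the degron removes protein, so their transcripts do not show whether depletion took place. Pds5b was at 109, 112 and 119 CPM untreated and 104, 109 and 113 CPM with auxin. The groups overlapped, and the log2 fold change of -0.06 ± 0.077 was not called (adjusted p = 0.535). A fit of these 6 libraries alone with the replicate block called it lower (-0.098, adjusted p = 0.0181), and total-count scaling turned its sign (0.092), without a call. Pds5a was at 73.7, 87.3 and 89.05 CPM and 57.4, 61.7 and 62.1 CPM, which do not overlap, with a log2 fold change of -0.46 ± 0.10 (adjusted p = 0.000373). Auxin in the TIR1 line gave 0.13 (adjusted p = 0.373) for Pds5a, and the difference between the lines was called at 0.00207.

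Of 23 genes of the cohesin ring and its regulators tested, 1 was higher and 10 were lower, with a median log2 fold change of -0.18; with total-count scaling the counts were 3 and 5 and the median was -0.03, and with the replicate number as a block they were 2 and 14. The TIR1 line had 5 members higher and none lower. Rad21, the kleisin that closes the ring, fell from 361, 378 and 376 CPM to 272, 283 and 286 CPM, Smc3 from 296 ± 20.6 to 225 ± 14.3 CPM on average (SD, n = 3 each), and Stag2, the more abundant STAG in many cells, from 115 ± 9.36 to 93.1 ± 8.34 CPM. The log2 fold changes of Rad21 and Smc3 were -0.41 and -0.40, and -0.25 for both with total-count scaling. Sgo1, the shugoshin that protects centromeric cohesion in mitosis, had the largest fall of the list, -0.60 ± 0.066 (adjusted p = 1.26e-08). The others called lower were Smc1a (-0.28), Ctcf, the boundary factor (-0.27), the kinase Haspin (-0.31), the acetyltransferase Esco2 (-0.33) and Hdac8, the SMC3 deacetylase (-0.49). With total-count scaling Smc1a, Stag2, Ctcf, Haspin and Esco2 were no longer called, at log2 fold changes of -0.13, -0.15, -0.12, -0.16 and -0.17. Smc1a and Esco2 overlapped between groups. Both lost the call without treated replicate 1 (adjusted p = 0.118 and 0.064) or untreated replicate 3 (0.0755 and 0.0626), and Smc1a also without untreated replicate 2 (0.0856).

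Rec8, the meiotic kleisin that replaces RAD21 in germ cells, was the one member that rose, from 20, 23.2 and 24.3 CPM to 59.2, 55.99 and 65.9 CPM, a log2 fold change of 1.42 ± 0.11. It also rose with auxin in the TIR1 line, by 0.74, and the difference was called at 0.00173. Wapl, the release factor partnering PDS5, was at 268, 283 and 296 CPM and 236, 252 and 259 CPM, separated but just outside the threshold (adjusted p = 0.05003). It was called lower with RLE or upper-quartile scaling, no filter, the groups alone, DESeq2 or without untreated replicate 1 (adjusted p = 0.0243 to 0.0443), whereas total-count scaling took its log2 fold change from -0.18 to -0.03 (adjusted p = 0.805). With the replicate block it was called as well (adjusted p = 0.000689), as were Cdca5, which encodes sororin, the antagonist of WAPL (0.00166), Espl1, the protease separase (0.000628), Pttg1, its inhibitor securin (0.0413), and Stag1 (0.0121, higher). Without the block the last 4 had log2 fold changes of -0.20, -0.17, -0.18 and 0.15, and of -0.04, -0.01, -0.03 and 0.30 with total-count scaling, which called Stag1 higher (adjusted p = 0.00522). Cdca5 and Espl1 were also called lower without untreated replicate 2 (adjusted p = 0.0348 and 0.0418) or treated replicate 1 (0.0059 and 0.0022), and Cdca5 with no filter (0.0456). The loader genes Nipbl and Mau2 (0.033 and 0.067), the acetyltransferase gene Esco1 (0.10) and the germline genes Smc1b, Stag3 and Ctcfl (0.085, -0.031 and 0.28) were not called and their groups overlapped. Mau2 was called higher with total-count scaling (0.22, adjusted p = 0.00718). With the replicate block and total counts together, Nipbl (0.19, adjusted p = 0.00184), Esco1 (0.26, 0.000728) and Mau2 (0.22, 0.000153) were called higher.

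Of 18 naive pluripotency genes 16 were lower and none higher, with a median log2 fold change of -0.77, and of 12 core pluripotency genes all 12 were lower, with a median of -0.84. With total-count scaling 15 naive genes were lower and 1 higher, and 10 of the 12 core genes were lower, with medians of -0.61 and -0.69. The medians in the TIR1 line were -0.01 and -0.28, with 4 higher and 5 lower of the naive genes and none higher and 6 lower of the core genes. The naive members with the largest falls were Tcl1, a coactivator of AKT, from 72.1, 84.3 and 79.97 CPM to 26.7, 30.7 and 27.3 CPM, Prdm14, a repressor of differentiation genes, from 35.7, 41.1 and 39.8 CPM to 12.2, 15.3 and 16.1 CPM, and Manba, a lysosomal mannosidase used as a naive marker, from 170.1, 158 and 155 CPM to 62.5, 62.4 and 61.7 CPM. Every untreated library was above every treated one in the 3 genes. Prdm14 was not called in the TIR1 line (0.07, adjusted p = 0.57), and the difference between lines was -1.49 (adjusted p = 2.36e-10). Manba fell in the TIR1 line too, by 0.89.

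Of the core list, L1td1 and Utf1 are given above. Trim28, the corepressor KAP1 of zinc finger proteins and of retroviral elements, went from 2103, 1690.0 and 1630.0 CPM to 827, 693 and 647 CPM (log2 fold change -1.32 ± 0.11, adjusted p = 3.68e-11). It overlaps Zbtb45 on the opposite strand, whose count was lower. Zfp42, the stem cell marker REX1, fell from 626, 742 and 705 CPM to 258, 285 and 302 CPM, by 1.30 on the log2 scale. Klf4, a naive factor downstream of LIF, went from 218, 173 and 200.1 CPM to 119, 99.5 and 108 CPM, whereas in the TIR1 line auxin raised it by 0.57 (adjusted p = 0.000151).

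The formative epiblast list, of genes that come on when naive cells prepare for lineage entry, was split. Of 20 members tested 4 were higher and 8 lower, with a median of -0.34 (-0.18 with total-count scaling). Wnt8a and Pou3f1 rose, by 2.15 and 1.38, as did Grhl2 by 0.95, and Foxd3, Etv4 and Zic2 fell, by 2.13, 1.90 and 0.99. Pou3f1, the factor OCT6, went from 5.16, 3.93 and 4.88 CPM to 13.6, 11.6 and 11.3 CPM, and fell by 1.02 with auxin in the TIR1 line. Etv4 was at 53.7, 24.2 and 24.7 CPM untreated, replicate 1 standing apart, and 12.3, 7.87 and 7.35 CPM treated. With auxin alone, in the TIR1 line, 2 members of this list were higher and 11 lower.

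Genes of the differentiated lineages were more often higher than lower. Of 19 endoderm genes 12 were higher and 2 lower (median 0.64), of 21 primitive streak and mesoderm genes 9 and 3 (median 0.76), of 21 neural genes 12 and 5 (median 0.48), and of 19 trophoblast genes 8 and 5 (median 0.29). In the same order the TIR1 line had 4 higher and 1 lower, 5 and 2, 2 and 4, and 4 and 4. The difference between lines was called with the PDS5AB effect the higher for 7, 4, 3 and 6 members and the lower for 2, 4, 1 and 4. With total-count scaling 13 primitive streak and mesoderm genes were higher. Foxa1, a pioneer factor of endoderm, rose from 0.742, 0.463 and 0.662 CPM to 5.93, 4.05 and 3.82 CPM, and Dab2, an endocytic adaptor of primitive endoderm, from 12.8, 10.6 and 11.1 CPM to 44.5, 34.2 and 37.9 CPM. Gata6, which drives primitive endoderm, went from 2.12, 1.49 and 1.05 CPM to 4.77, 3.66 and 3.95 CPM. The 3 genes were higher in every treated library, with Dab2 the most abundant. Apoe and Lama1 were the 2 endoderm members that fell, Apoe from 404, 408 and 413 CPM to 184, 187 and 184 CPM. The summed level of 6 primitive endoderm markers, 4 of them higher, was 24.2 to 26.9 CPM untreated and 58.5 to 71.9 CPM with auxin. That of 7 neuron markers was 70.2 to 82.0 CPM against 47.4 to 67.4 CPM, with Sox1 and Tubb3 lower, and that of 6 trophoblast markers 2.98 to 5.09 CPM against 3.89 to 5.82 CPM, with Tpbpa at 0 in all 6 libraries and Plac1 called higher, from 0.304, 0.0992 and 0.193 CPM to 1.72, 0.686 and 0.425 CPM. The part of such cells in the lineage counts was not tested.

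Wnt3, a ligand that induces the primitive streak, rose by 2.75 ± 0.26, Mesp2 by 1.15 ± 0.24 and Twist1 by 0.90 ± 0.21, whereas Eomes, a T-box factor of streak and trophoblast, went from 27.9, 16.2 and 17.4 CPM to 13.5, 12.6 and 13.8 CPM. The fall of Eomes was no longer called without untreated replicate 1 (adjusted p = 0.0596), where 1 streak gene in place of 3 was lower. Among neural genes, Irx3 and Pax7 rose by 2.32 and 1.68 from means under 1 CPM. Sox1, Gbx2 and the Notch ligand gene Dll3 fell by 0.98, 0.84 and 0.73. The largest rises of the trophoblast list were in keratins and Plet1: Krt19 went from 16.7, 19.5 and 25.5 CPM to 104, 132 and 145 CPM, Krt7 from 4.05, 3.64 and 3.17 CPM to 22.01, 22.6 and 23.1 CPM and Plet1 from 8.19, 5.79 and 7.09 CPM to 32.3, 24.8 and 27.1 CPM. Its transcription factor genes Cdx2, Gata3 and Hand1 were not called, at log2 fold changes of -0.38, 0.29 and 0.76. Cdx2 was called higher in the TIR1 line, by 2.78, and the difference was -3.15. Tead4, needed for trophectoderm, and the imprinted gene Phlda2 fell, by 0.83 and 0.87.

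The genes of two-cell-like cells, a rare state of stem cell cultures marked by the Zscan4 family, rose together. Of 20 tested, 18 were higher and none lower, 14 of them by at least 2-fold, and the median was 1.25 against -0.24 in the TIR1 line. Zscan4f went from 4.55, 2.08 and 3.37 CPM to 11.04, 6.66 and 8.59 CPM, Usp17lc from 3.71, 1.85 and 2.01 CPM to 10.6, 6.40 and 7.02 CPM and Usp17ld from 1.58, 0.926 and 0.497 CPM to 4.21, 2.61 and 2.94 CPM. Replicate 1 was highest in both groups for all 3, and the groups did not overlap. The Zscan4 and Usp17l families have near-identical copies whose shared reads were dropped in counting, so the value of a single copy is uncertain.

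Hox genes, which pattern the body axis and are silenced by Polycomb in stem cells, were also nearly uniform in direction: 24 of 30 tested were higher and none lower, 19 by at least 2-fold, with a median of 1.42 against 0.44 in the TIR1 line. That line had 5 higher and none lower. The difference between lines was called for only 7 of the 30, the PDS5AB effect being the higher in all 7. Their levels were low, with a median of 0.585 CPM untreated. Their summed level was 52.4 to 56.3 CPM untreated and 114 to 130 CPM treated. Hoxd9 went from 0.438, 0.529 and 0.580 CPM to 3.02, 2.94 and 3.43 CPM, Hoxb4 from 0.843, 0.959 and 0.993 CPM to 3.32, 3.72 and 2.87 CPM and Hoxb13 from 2.23, 2.61 and 3.31 CPM to 8.99, 8.04 and 9.80 CPM. Of these 3, the difference from the TIR1 line was called for Hoxb13 (adjusted p = 0.00477) and not for Hoxd9 (0.198) or Hoxb4 (0.169). Germline genes that DNA methylation keeps silent gave 11 higher and none lower of 24 (median 0.32), led by Brdt (1.73), Tex101 (1.59) and Sycp2 (1.24). In the TIR1 line 4 were higher and 3 lower. The difference was called with the PDS5AB effect the higher for 7 and the lower for 1.

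Chromatin regulators did not move one way. Of 34 Polycomb subunits 10 were higher and 12 lower, and the median of -0.05 became 0.11, with 7 lower, under total-count scaling. Cbx8, a chromodomain subunit of Polycomb complex 1, rose by 1.47, and Phf19, an accessory subunit of complex 2, by 1.37. Cbx6 fell by 0.83, and Eed, a core subunit of complex 2, from 274, 286 and 282 CPM to 162, 172 and 172 CPM. Of 18 DNA methylation and TET genes 3 were higher and 8 lower, with a median of -0.12 that became 0.04, with 5 higher, under total-count scaling. Uhrf1, the cofactor of maintenance methylation, fell from 633, 629.7 and 642 CPM to 365, 357 and 346 CPM, Tet2, a methylcytosine dioxygenase, from 196, 213 and 240.1 CPM to 115, 122 and 134 CPM, and Zfp57, which protects imprints, from 533, 521 and 592 CPM to 271, 280.4 and 325 CPM. The de novo methyltransferase gene Dnmt3a rose from 151, 119 and 122 CPM to 219, 173 and 161 CPM, and fell by 0.55 with auxin in the TIR1 line. Of 350 Zfp-named zinc finger genes 53 were higher and 76 lower, counts that became 90 and 39 with total-count scaling. Zfp503, Zfp608 and Zfp703 rose most (2.66, 2.43 and 2.41), each also higher with auxin in the TIR1 line. That line had 6 higher and 4 lower Polycomb genes, 4 and 4 of the methylation list, and 30 and 12 Zfp genes.

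Signalling lists divided by pathway. Of 23 ERK feedback and immediate early genes 6 were higher and 9 lower. The immediate early transcription factors Fos, Egr1 and Jun rose, Fos from 4.89, 3.70 and 3.86 CPM to 20.7, 18.6 and 18.8 CPM, Egr1 by 1.96 and Jun by 1.51, and the feedback regulators Spry4 and Dusp6 and the ETS factor Etv4 fell, as given above. These cells were grown with a MEK inhibitor in both groups. The median of this list was -0.15, and 0.01 with total-count scaling, beside -0.16 in the TIR1 line, where 3 were higher and 6 lower. Of 20 Wnt output genes 8 were higher and 4 lower (2 lower with total-count scaling), with a median of 0.36. In the TIR1 line 11 were higher and none lower, with a median of 0.57, and the difference between lines was called for 8 members, the PDS5AB effect being the lower in 7. Dkk1 and Rnf43, which inhibit the pathway, and the effector Sp5 rose by 2.59, 1.63 and 1.38; all 3 also rose in the TIR1 line, by 1.42, 1.62 and 1.56. Ccnd1, which encodes cyclin D1, fell from 75.4, 60.9 and 61.1 CPM to 24.1, 17.9 and 16 CPM, and Notum, a secreted Wnt deacylase, from 17.6, 18.3 and 16.9 CPM to 4.77, 6.79 and 4.87 CPM, neither with a call in the TIR1 line.

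Nodal and activin genes gave 8 higher and 3 lower of 19, and 13 higher with total-count scaling. Smad3, a signal transducer of the pathway, rose from 16.6, 15.6 and 17.6 CPM to 34.4, 36.7 and 38.8 CPM and Furin, a protease that matures Nodal, by 1.06. Inhbb, Fst (the activin trap follistatin) and the coreceptor gene Tdgf1 fell, by 2.32, 1.55 and 0.39, the last of which overlapped between groups and was not called with total-count scaling. BMP response genes gave 9 higher and 2 lower of 21: Bmp8b, Dlx3 and Smad6 rose by 2.03, 1.95 and 1.28, and Bmp4 and Id3 fell by 0.72 and 0.85. Bmp8b overlaps Ppie on the opposite strand, which had far more counts. LIF and STAT3 genes gave 6 higher and 8 lower of 16. Lifr, the LIF receptor, fell from 107, 107 and 108 CPM to 64, 70.3 and 72.04 CPM, whereas Lif itself rose by 0.83 and the feedback inhibitors Socs1 and Socs3 by 0.81 and 0.48. The TIR1 line gave 4 higher and 4 lower Nodal and activin genes, 3 and 2 BMP response genes, and 7 and 1 LIF and STAT3 genes.

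Stress and response genes were higher in part. Of 30 p53 targets 23 were higher and 1 lower, with a median of 0.67; in the TIR1 line 16 were higher and 2 lower, with a median of 0.25. Perp, a p53-induced desmosome protein, went from 44.9, 34.02 and 30.8 CPM to 93.9, 83.9 and 84.3 CPM, Fas, a death receptor, from 1.62, 0.826 and 1.02 CPM to 4.85, 4.51 and 5.98 CPM and Ccnd2, which encodes cyclin D2, from 4.08, 3.17 and 2.87 CPM to 16.5, 14.8 and 14.1 CPM. Bax was the member that fell (-0.19, adjusted p = 0.0263), a call that ended with total-count scaling (-0.03), without untreated replicate 2 and without treated replicate 1. Trp53inp1 and Ccng1, which were among the 5 largest gains in CPM, are known p53 targets: Trp53inp1 went from 388, 420.1 and 438 CPM to 662, 746 and 799.8 CPM and Ccng1 from 437, 436 and 426 CPM to 657, 716 and 713 CPM. Of 23 apoptosis genes 9 were higher and 4 lower (2 lower with total-count scaling), the former led by the BH3-only genes Bik, Pmaip1 (NOXA) and Bcl2l11 (BIM), at 1.21, 1.17 and 1.13.

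Aryl hydrocarbon receptor targets, which respond to indoles, were called higher for 8 of 11 members in the TIR1 line against 4 in the PDS5AB line, and lower for 1 and 3, with medians of 0.63 and 0.08. Cyp1a1 went from 0.472, 0.694 and 0.414 CPM to 7.57, 6.04 and 6.99 CPM in the PDS5AB line, a log2 fold change of 3.71 ± 0.21, beside 7.24 in the TIR1 line, a difference of -3.54 (adjusted p = 5.67e-08). Tiparp, a feedback repressor of the receptor, fell by 0.68 and rose in the TIR1 line by 0.68. NRF2 targets were even, 7 higher and 7 lower of 22, with Srxn1, Hmox1 and Gclc higher and Gsta4, Ftl1 and Tkt lower. The number higher was 11 with total-count scaling and 3 without treated replicate 1. Interferon response genes gave 8 higher and 5 lower of 23, and 3 lower with total-count scaling, without untreated replicate 2 or without treated replicate 1. Tap1, the peptide transporter of antigen presentation, rose from 9.17, 6.15 and 7.37 CPM to 36.7, 29.9 and 30.1 CPM and H2-K1, a class I histocompatibility gene, from 24.6, 36.3 and 40.4 CPM to 63.7, 76.4 and 85.8 CPM, whereas Ddx58 and Ifitm3 fell. Bst2 was called lower as well (-0.46), but not with total-count scaling (-0.30, adjusted p = 0.0871), without untreated replicate 2 (0.0674) or without treated replicate 1 (0.0528). In the TIR1 line NRF2 targets were 6 higher and 2 lower, and interferon genes 3 and 3. Tap1 overlaps Psmb9 on the opposite strand, so the smaller count of Psmb9 is uncertain.

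Genes of amino acid supply and the ATF4 response were mostly lower. ATF4 is a factor made when amino acids are short, which turns on transporters, synthetic enzymes and tRNA synthetases. Of 35 list members tested 25 were lower and 3 higher, with a median log2 fold change of -0.55. In the TIR1 line 23 were lower and none higher, with a median of -0.35. Beside Slc7a3, Chac1, a glutathione-degrading enzyme, went from 5.67, 7.77 and 8.003 CPM to 1.94, 2.12 and 2.09 CPM and Pycr1, the last enzyme of proline synthesis, from 15.9, 23.04 and 26.4 CPM to 6.49, 8.92 and 10.97 CPM. The difference from the TIR1 line was called for Slc7a3 (-2.02, adjusted p = 2.52e-09), and at 0.0438 for Chac1 and 0.0243 for Pycr1. The last 2 calls were lost with total-count scaling (adjusted p = 0.0898 and 0.0599). They were also lost when any of several libraries was left out, including untreated replicates 2 and 3 and treated replicate 1 of the PDS5AB line, with adjusted p up to 0.108 for Chac1 and 0.0878 for Pycr1. Atf3, Ddit4 and Cebpb were the 3 members that rose, by 1.97, 1.38 and 0.75, and 5 members were higher with the replicate block.

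The promoters of the list members were read for the composite element of ATF4 and C/EBP factors, TGATGNAA on either strand. The windows ran from 250 bases before to 50 after the RefSeq start on GRCm38.p6. Of the 25 members called lower 21 had a window, and 8 of these (38.1%) held the element, beside 359 of 12729 genes tested that had a window (2.82%) and 3.97% of all 32851 windows. The list was assembled from known ATF4 targets, so the share is a description of the list. Among genes called lower by at least 2-fold 11 of 202 (5.45%) held it. The 250 bases before the start are shown for the 4 genes with the largest falls among the 8, in the direction of the gene, with the element in capitals.
Chac1 (chr2:119350992-119351241, + strand): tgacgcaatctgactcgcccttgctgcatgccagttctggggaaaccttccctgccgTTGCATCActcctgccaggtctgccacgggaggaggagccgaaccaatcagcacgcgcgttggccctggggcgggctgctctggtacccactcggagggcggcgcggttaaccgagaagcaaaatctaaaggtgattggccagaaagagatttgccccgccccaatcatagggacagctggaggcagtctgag
Pycr1 (chr11:120643749-120643998, - strand): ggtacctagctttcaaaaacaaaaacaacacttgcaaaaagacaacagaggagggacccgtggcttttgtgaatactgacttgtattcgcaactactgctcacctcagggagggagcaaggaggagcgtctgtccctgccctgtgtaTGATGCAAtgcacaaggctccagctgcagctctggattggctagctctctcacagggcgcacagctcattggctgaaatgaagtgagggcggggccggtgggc
Nupr1 (chr7:126625471-126625720, - strand): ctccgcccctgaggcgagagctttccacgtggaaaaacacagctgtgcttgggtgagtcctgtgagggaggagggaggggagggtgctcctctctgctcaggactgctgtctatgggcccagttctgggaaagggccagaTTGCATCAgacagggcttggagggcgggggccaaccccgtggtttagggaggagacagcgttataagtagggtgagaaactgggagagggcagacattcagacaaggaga
Aars (chr8:111033592-111033841, + strand): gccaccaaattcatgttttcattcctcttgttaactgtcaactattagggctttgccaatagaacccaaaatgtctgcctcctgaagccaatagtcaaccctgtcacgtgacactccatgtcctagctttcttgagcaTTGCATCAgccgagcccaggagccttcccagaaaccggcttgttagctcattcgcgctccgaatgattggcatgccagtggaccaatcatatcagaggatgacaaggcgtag
In the bases shown the element starts 193, 103, 110 and 112 bases before the start of transcription, and Pycr1 has it as TGATGCAA on the gene's strand and the others as TTGCATCA, its reverse complement. The Aars window holds a second match, TTTCATCA, past the start and outside the bases shown. Nupr1 is a stress-induced chromatin protein and Aars the alanyl-tRNA synthetase. A match shows only that the letters are present.

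Of 82 cytosolic ribosomal protein genes 79 were lower and none higher, with a median of -0.43 (-0.27 and 61 lower with total-count scaling) and a summed level of 61960 to 71400 CPM against 45560 to 52620 CPM. The number lower in the TIR1 line was 28. Rps20 went from 851, 1013 and 942 CPM to 489, 602 and 574 CPM and Rpl36a from 367, 448 and 394 CPM to 207, 257 and 228 CPM. Genes of this family have many processed pseudogenes, and fragments that fit several places were dropped, so low values such as that of Rpl24 (mean 4.05 CPM untreated) are uncertain. The 5 largest losses in CPM were Eef1a1, an elongation factor of translation, from 9110.0, 10190.0 and 9089 CPM to 6744, 7336 and 7228 CPM, Hsp90ab1, a chaperone, from 5831, 4425 and 4512 CPM to 4093, 3251 and 3169 CPM, the nucleolar proteins Ncl and Npm1, and Ptma. Ncl fell from 2753 ± 74.2 to 1639 ± 40.96 CPM (SD, n = 3 each), Npm1 from 2773 ± 99.7 to 1645 ± 113 CPM and Ptma, the chromatin protein prothymosin alpha, from 2226 ± 67.5 to 1102 ± 23.7 CPM. The log2 fold change of Eef1a1 was -0.41, and -0.26 with total-count scaling. None of these 5 was called in the TIR1 line. The 5 largest gains were Trp53inp1, Ccng1, Fem1b, Fn1 (fibronectin) and Atp2a2 (the calcium pump of the endoplasmic reticulum). Fem1b, an adaptor of a ubiquitin ligase, went from 491, 439 and 435 CPM to 894, 736 and 719 CPM.

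DNA replication genes were 32 lower and none higher of 35, with a median of -0.40, led by Rrm2, the small subunit of ribonucleotide reductase, from 244, 218 and 212 CPM to 119, 112 and 109 CPM, Pola1, the catalytic subunit of primase-coupled polymerase alpha, from 114, 136 and 131 CPM to 59.97, 70.8 and 68.1 CPM, and Mcm10, a replication initiator, from 218, 235 and 222 CPM to 120.0, 126 and 117 CPM. With total-count scaling 27 were lower and 1 higher, with a median of -0.24. Mitosis genes were 18 lower and 1 higher of 30 (median -0.28), 11 and 4 with total-count scaling. The TIR1 line had 13 replication genes lower and 2 higher, and 3 mitosis genes lower and 1 higher. Plk1, a mitotic kinase, fell by 0.57, Nek2 by 0.48 and Nusap1 by 0.41, and the kinesin gene Kif23 rose by 0.27, 1 of 2 members higher with the replicate block. Nuclear respiratory chain genes were 47 lower and 4 higher of 83 with TMM but 14 and 6 with total-count scaling, and 31 were lower without untreated replicate 2. The number of them higher was 1 without untreated replicate 1 and 2 without treated replicate 2 or 3. The mitochondrial ones were 3 lower of 13, 9 lower with the replicate block, 1 without treated replicate 2 and none with total-count scaling. Glycolysis genes (3 higher and 8 lower of 23) and cholesterol synthesis genes (1 and 8 of 24) had medians of -0.12 and -0.14 that became 0.03 and 0.01 with total-count scaling. Their counts then became 5 and 5, and 8 and 2. With the replicate block 7 glycolysis genes were higher and 12 lower, and 6 cholesterol genes higher and 11 lower. Without treated replicate 1, 5 genes of each list were lower, and 5 cholesterol genes were lower without untreated replicate 2 or treated replicate 3. TIR1 medians were -0.20 for the nuclear respiratory chain genes, -0.14 for glycolysis and -0.17 for cholesterol synthesis, with 30, 7 and 6 genes lower and 1, 1 and none higher. Lysosome genes were 14 higher and 4 lower of 26 (median 0.23, and 0.22 in the TIR1 line), with Gaa, Psap and Lamp2 higher and Ctsa, Tfe3 and Tfeb lower.

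Collagen and laminin chains gave 31 higher and 3 lower of 47 (median 0.89, 0.02 in the TIR1 line, where 3 were higher and 5 lower). Col6a4 went from 1.82, 1.98 and 1.93 CPM to 7.24, 7.19 and 6.79 CPM, Col23a1 from 2.16, 4.13 and 3.45 CPM to 8.84, 10.8 and 9.96 CPM and Lamb3 from 7.38, 5.22 and 6.15 CPM to 24.4, 16.3 and 16.9 CPM. Lama1, the laminin chain of the early embryo, fell from 120.1, 111 and 116 CPM to 93.95, 78.9 and 80.99 CPM and rose with auxin in the TIR1 line by 0.33. Among the 12 fibroblast markers 4 rose (Col1a1 by 1.02, Pdgfrb by 0.94, Col5a1 by 0.73 and Col1a2), beside the near absence of Lum, Dcn and Prrx1 given above. The part of other cell types in the matrix genes was not tested. Mesenchymal genes were 14 higher and 2 lower of 21 and epithelial genes 16 and 2 of 30, beside 3 and none, and 6 and 1, in the TIR1 line. Ccn2, a matricellular target of YAP, rose from 33.2, 24.1 and 26.2 CPM to 117, 88.7 and 99.4 CPM and Mmp2, a matrix protease, from 8.13, 6.71 and 7.67 CPM to 21.5, 19.8 and 20.5 CPM, whereas Vim, the intermediate filament vimentin, fell from 396, 318 and 304 CPM to 259, 211 and 217 CPM. On the epithelial side Krt18 rose from 10.4, 7.27 and 7.51 CPM to 32.5, 21.1 and 23.9 CPM, and Prom1 fell by 1.28.

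Voltage-gated ion channels were 35 higher and 4 lower of 68 (9 lower with the replicate block, 7 without treated replicate 1), led by the calcium channel gene Cacna1g, from 2.12, 2.35 and 2.15 CPM to 13.2, 12.8 and 12.7 CPM. Scn3a, a sodium channel gene, fell from 2.39, 3.47 and 4.08 CPM to 0.821, 0.621 and 1.14 CPM and rose in the TIR1 line by 0.85. Solute carriers were 113 higher and 40 lower of 292, synaptic adhesion genes 12 and 7 of 30, imprinted genes 15 and 10 of 48 (5 lower with total-count scaling) and clustered protocadherins 6 and 7 of 32. The 7 lower synaptic genes became 2 with total-count scaling or without untreated replicate 1 and 3 without treated replicate 2 or 3. The TIR1 line had 6 channel genes higher and 11 lower, 55 and 25 solute carriers, 3 and 4 synaptic genes, and 4 and 10 imprinted genes. Slc4a9, an anion exchanger gene, rose by 2.95, and Slc47a1, an exporter of organic cations, fell by 1.56. Among imprinted genes Zim1, Dlk1 and Dio3 rose by 1.64, 1.51 and 0.91 and Peg12, Phlda2 and Grb10 fell by 1.39, 0.87 and 0.74.

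**Figure D3:**
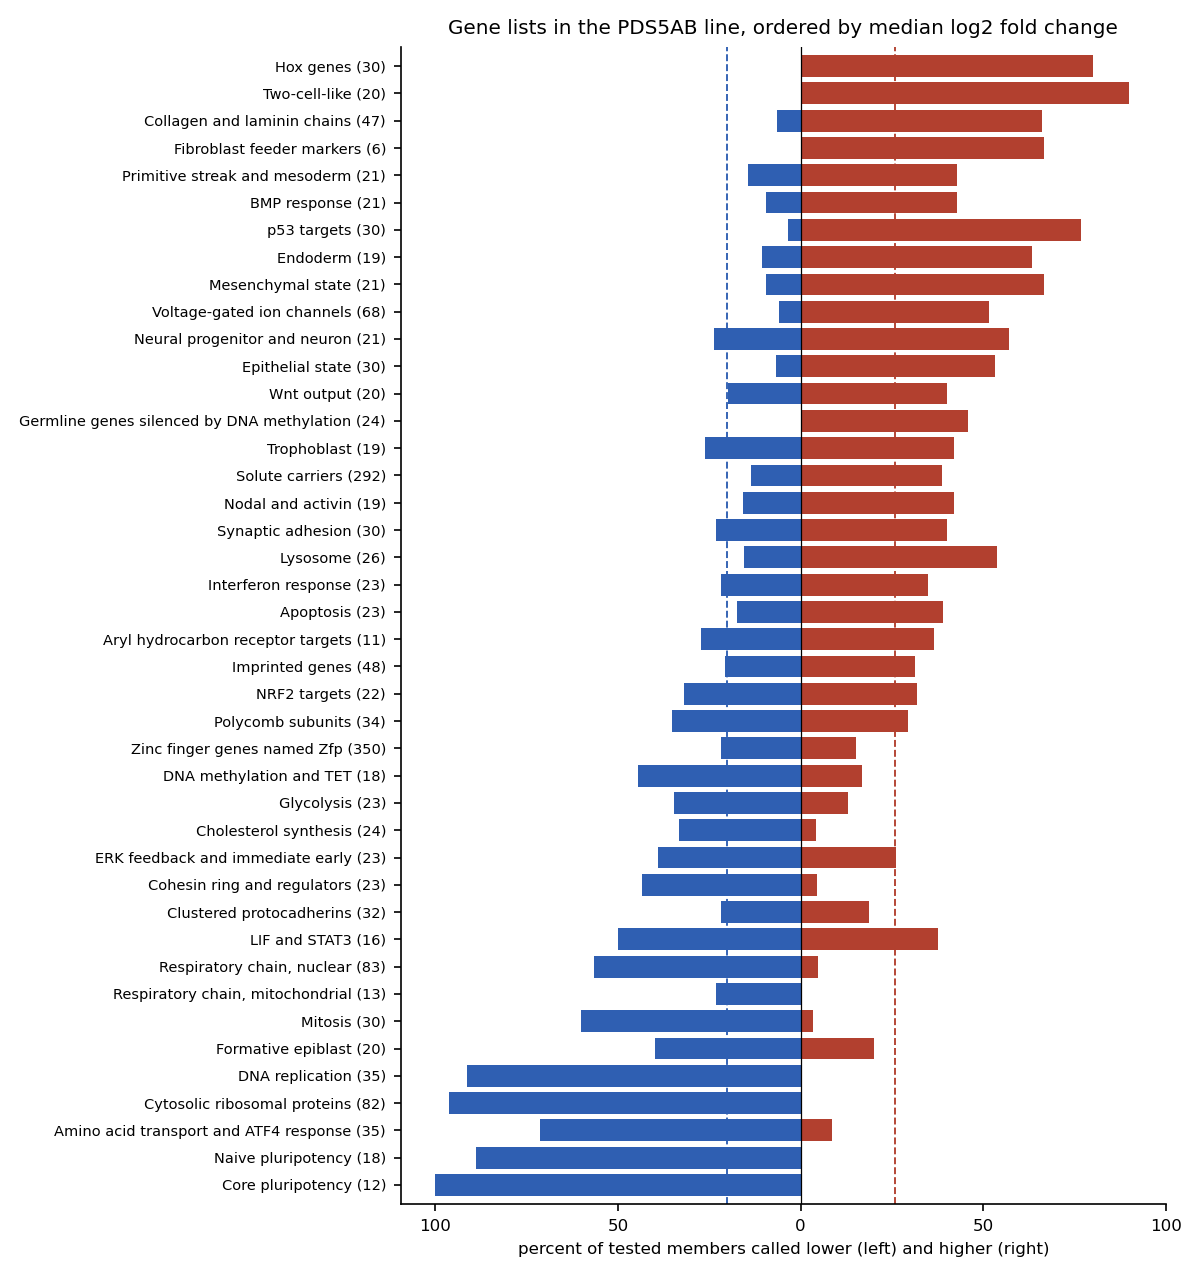
Percent of the tested members of each of 42 gene lists called lower (blue, to the left) and higher (red, to the right) with auxin in the PDS5AB line with TMM scaling, ordered by median log2 fold change, with the number tested in brackets. Dashed lines mark the 20.2% lower and 25.8% higher of all genes; two-cell-like genes reach 90.0% higher, and the core pluripotency and cytosolic ribosomal protein lists 12 of 12 and 96.3% lower.

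Long genes were called higher more often than short ones. Of genes spanning under 10 kb 16.7% were higher and 18.9% lower, of those of 10 to 30 kb 27% and 24.2%, of 30 to 100 kb 33.7% and 19.4%, of 100 to 300 kb 39.5% and 15.5%, and of those over 300 kb 34.2% and 19.5%. Level and span go together, so the shares were also taken for genes above and below the median level. Above it the percent higher was 15.7, 21.3, 28, 35.8 and 34 from the shortest to the longest bin, and the percent lower 44.3, 35.3, 26.1, 21.1 and 27.6. Below it the percent higher was 17.2, 36.1, 45.8, 45.3 and 34.4 and the percent lower 8.44, 6.53, 4.99, 6.6 and 14.7. In the TIR1 line the median log2 fold change ran from -0.13 under 10 kb to 0.11 at 100 to 300 kb and 0.0 over 300 kb, beside -0.07, 0.20 and 0.20 here. By chromosome, the share of higher genes was largest on chromosome 11 (31.1% of 1506) and smallest among the autosomes and X on X (18.7% of 734).

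Adjacent genes tended to be called in the same direction when they lay close together. Among pairs of neighbours that were both called and did not overlap, 67.7% of 908 pairs with starts under 20 kb apart had the same direction, then 62.8% of 1819 at 20 to 100 kb, 59.9% of 960 at 100 to 500 kb and 56.5% of 216 beyond. Close pairs were both higher in 301 cases and both lower in 314. At 20 to 100 kb these numbers were 778 and 364, so the mix of directions changed with distance too. Over all 3903 such pairs 62.9% had the same direction. The share of pairs and the number of runs expected from the call shares alone were not computed. The part of expression level was not tested. The genome held 88 runs of at least 3 consecutive tested genes that were all called and all changed at least 2-fold in one direction, 83 of them higher. The longest was the Zscan4 cluster on chromosome 7 (10900740 to 11614112), with 11 genes and a median log2 fold change of 1.24 against -0.27 in the TIR1 line. Next came 8 genes of the Hoxd cluster on chromosome 2 (74668310 to 74765142), with a median of 1.97. Runs of 6 genes were the Hoxc cluster and the keratins Krt80 to Krt1, both on chromosome 15, and the antigen presentation genes from Psmb9 to H2-Eb1 on chromosome 17 (34181987 to 34316674). The keratin run (101347444 to 101850794), which encodes type II filament proteins of epithelia, had a median of 2.66 and the antigen presentation run one of 1.79, and their TIR1 medians were 0.77 and -0.38. Other runs held Krt4 to Krt18 on the same chromosome, the carboxylesterases Ces2b to Ces2g on chromosome 8, Cacna1g with Epn3 on chromosome 11 and Nkx2-1, Nkx2-9 and Pax9 on chromosome 12. The longest run of falls was 4 genes around Pycr1 and Notum on chromosome 11 (120635712 to 120661815, median -1.83), which includes antisense genes of Notum and Myadml2 whose reads cannot be told from their partners.

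**Figure D4:**
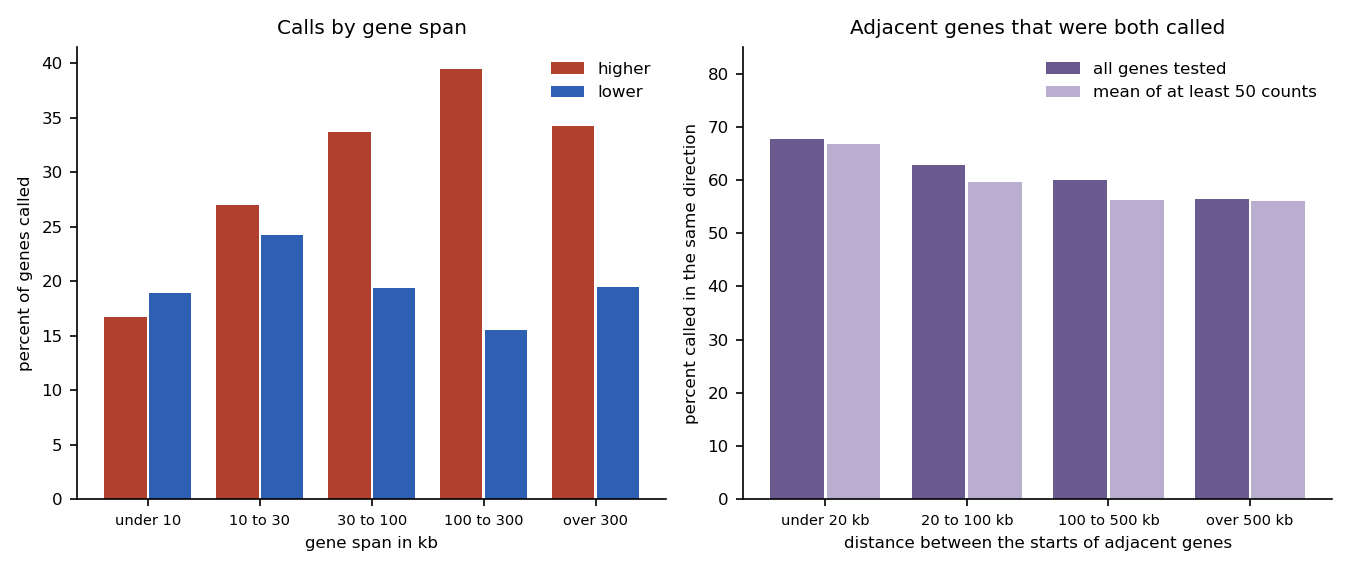
Left, percent of genes called higher (red) and lower (blue) with auxin in the PDS5AB line by gene span, from 16.7% and 18.9% under 10 kb to 39.5% and 15.5% at 100 to 300 kb. Right, percent of adjacent gene pairs, both called, that changed in the same direction, by the distance between their starts, for all genes tested and for those averaging 50 counts or more; both fall with distance, from 67.7% and 66.8% to 56.5% and 56.0%.

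The TIR1 line measures what auxin gave without tagged cofactors. Of the 5120 genes higher in the PDS5AB line 1008 were also called higher in the TIR1 line, and the difference was called in the same direction for 2317 (45.3%). Of the 4014 lower genes the numbers were 929 and 1923 (47.9%). Of the 2173 genes higher by at least 2-fold 1135 (52.2%) differed from the TIR1 line, and of the 401 lower by at least 2-fold 203 (50.6%). The lines also differed before treatment: 32% of genes were called between untreated PDS5AB and untreated TIR1. The untreated TIR1 libraries carry library numbers 5, 13 and 21 and the treated ones 43 to 45, whereas the PDS5AB libraries of both groups lie between 1 and 19, so in the TIR1 line the auxin effect and the library set cannot be told apart.

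Among the 24 largest changes, the difference from the TIR1 line was called with a larger rise here for genes that include Fat4, Epn3, Krt5, Chit1 and Chst15, and with a smaller one for Cyp1a1. It was not called for Wdr72, Ces2f, Gbp2, Ighm and Krt20. Among the falls it was called for 8 of 12. For Fat4 it was lost without untreated TIR1 replicate 1, where the adjusted p was 1, without untreated PDS5AB replicate 3 (0.0519) and without any treated TIR1 library (0.0509 to 0.0586), and for Krt5 without untreated TIR1 replicate 3 (0.0841). Chst15 was not called in the TIR1 line (0.09, adjusted p = 0.786), and the difference was 3.11 (adjusted p = 5.2e-10). L1td1 fell there by 0.56 and differed by -1.67 (adjusted p = 5.77e-11). Gli2, which is outside these 24 genes and was named for its p-value, fell there by 0.21 and differed by -1.78 (1.15e-12). For Utf1, Eras, Inhbb and Enox1 the difference was not called (adjusted p = 0.164, 0.0625, 0.085 and 0.477). Utf1 fell by 1.88 in the TIR1 line beside 2.42 here, and Enox1 by 2.68 beside 2.15.

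**Figure D5:**
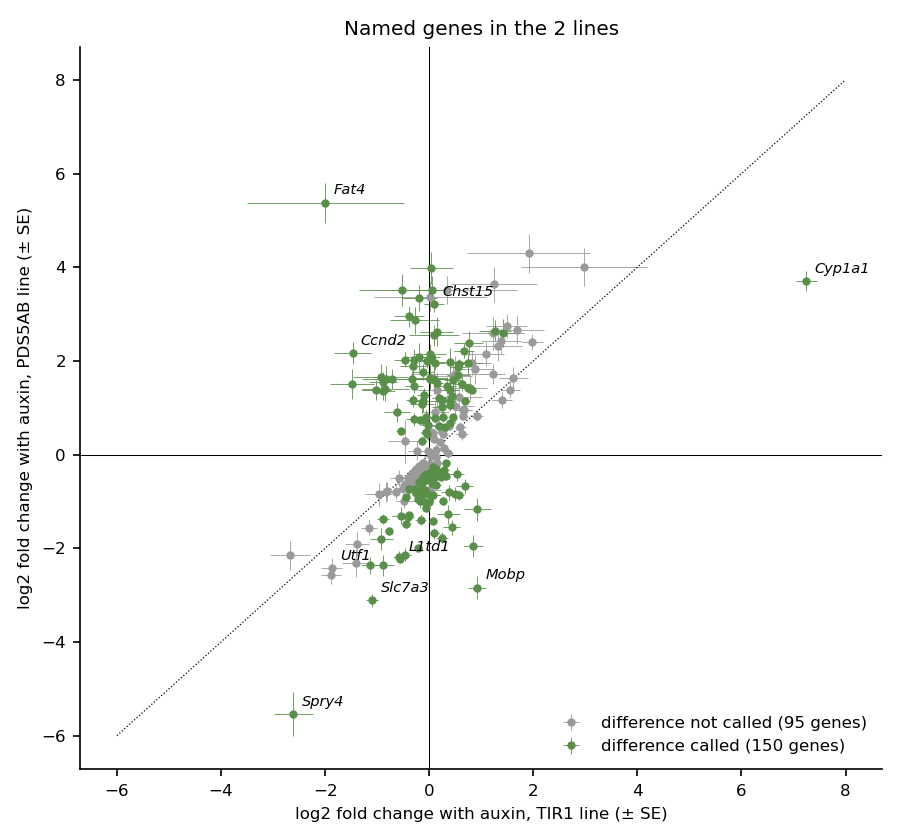
Log2 fold change with auxin in the PDS5AB line against that in the TIR1 line for the 245 named genes, with SE bars; green points are the 150 genes whose difference between lines was called, grey points the other 95, and the dotted line marks equal effects. Cyp1a1 lies below the line (3.71 and 7.24) and Mobp has opposite signs (-2.84 and 0.92), whereas Chst15 lies near 0 on the TIR1 axis.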

How the data were processed

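Stranded polyA RNA-seq of 30 libraries from 5 lines was used, 6 of them from the PDS5AB line. The deposited table holds raw counts of read pairs per gene, made by the authors with featureCounts 2.0.1 in paired mode on GENCODE vM23 and GRCm38, with no strand, multi-mapping or overlap option, per the file headers. Reads were aligned with STAR 2.7.7a, and cutadapt was also used, per the submitters' processing notes. Fragments that fit several places or several genes were therefore not counted, and antisense reads over 1 gene were counted for it.

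From these counts edgeR 4.0.16 (R 4.3.3) fitted 1 mean for each of the 10 groups with TMM scaling, after filterByExpr with a minimum count of 10 left 19868 of 55421 genes. Its quasi-likelihood F-test gave log2 fold changes for auxin against untreated in the PDS5AB line, in the TIR1 line and for their difference. Adjusted p-values are Benjamini-Hochberg over all genes tested, and a gene is called at 0.05. CPM values are counts divided by the TMM-scaled library size, and SE is that of the fitted log2 fold change. The common biological coefficient of variation was 9.15% with 20 residual degrees of freedom. The script was tested on simulated data.

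The replicate numbers come from the labels. Deviations of same-numbered treated and untreated libraries correlated at 0.333, 0.109 and 0.296 in the PDS5AB line and at 0.0574, -0.0102 and -0.00525 in the TIR1 line. The numbers were thus read as pairs in the PDS5AB line. The main fit nevertheless has no pairing term, so its calls and p-values treat the libraries as unpaired. Pairing enters only in the replicate block, an alternative that called 11255 genes in place of 9134. With it 110 Zfp genes in place of 76 were lower, and 21 epithelial genes in place of 16 higher. The named genes are the 12 largest log2 fold changes, the 5 largest changes in mean CPM and the 3 smallest p-values in each direction among called genes averaging 50 counts or more, with no overlap between groups and a symbol that is not of a predicted gene or small RNA. To these come all cohesin list members and up to 3 members in each direction of the other 41 gene lists, by log2 fold change among called members of that mean count. Cdx2, Gata3 and Hand1, Plac1, Col1a2, Tubb3, Aars, Nupr1, the stem cell markers Pou5f1, Sox2 and Nanog, genes on the opposite strand of a named gene and the runs of adjacent genes were named outside this rule after their values were seen. The members and lists were chosen with earlier results of these data known, so the lists are described and not tested. Expression quintiles were cut on the mean over the 6 libraries in place of the untreated mean. Both splits use values of the contrast, so neither set of quintiles is independent of it. Alternatives were RLE, upper-quartile and total-count scaling, DESeq2 1.42.0, no filter, the groups alone, the replicate block, a 1.5-fold threshold (glmTreat) and leaving out each library. No library was dropped from the main results. A few genes that meet the naming rule are not reported here.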

Additional observations from a re-analysis of the deposited data

Results flagged for a closer look

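In 16 of the 245 named genes auxin gave called changes of opposite sign in the PDS5AB line and the TIR1 line, and the difference between the lines (edgeR quasi-likelihood test, Benjamini-Hochberg adjustment) was called as well. They make up 6.87% of the 233 named genes called in the PDS5AB line; over all 9134 genes called there, the same held for 411, or 4.5%. In 6 of them the gene was higher in the PDS5AB line and lower in the TIR1 line. The cyclin D2 gene Ccnd2 had a log2 difference of 3.64 (PDS5AB 2.17 and TIR1 -1.47, adjusted p = 2.76e-07). Dlk1, an imprinted gene of a Notch-related ligand, differed by 3.0 (1.51 and -1.48), the immunoproteasome gene Psmb9 by 2.45 (1.56 and -0.89), Pou3f1 by 2.40 (1.38 and -1.02), Phf19 by 2.25 (1.37 and -0.88) and Dnmt3a by 1.05 (0.50 and -0.55). Psmb9 overlaps Tap1 on the opposite strand, so its count is uncertain.

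In the other 10 the gene was lower in the PDS5AB line and higher in the TIR1 line. The largest difference among these was that of Mobp, at -3.75 (-2.84 and 0.92, adjusted p = 3.28e-10). The sodium channel gene Scn3a differed by -2.80 (-1.95 and 0.85) and Ptprd, a receptor phosphatase of synapses, by -2.09 (-1.17 and 0.92). Klf4 differed by -1.43 (-0.86 and 0.57), Tiparp by -1.36 (-0.68 and 0.68), the homeobox gene Gbx2 by -1.34 (-0.84 and 0.50) and Rrm2 by -1.26 (-0.99 and 0.27). Col9a2 differed by -0.95 (-0.41 and 0.54), Lama1 by -0.78 (-0.45 and 0.33) and Esco2 by -0.62 (-0.33 and 0.29, adjusted p = 0.0015). For Col9a2 and Esco2 the change in the PDS5AB line was not called with total-count scaling. Treated TIR1 libraries carry library numbers apart from all others compared here.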

How the results depend on the processing

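The PDS5AB effect was called for 9134 genes (5120 higher and 4014 lower). With the replicate block 11255 were called, 9120 of the 9134 among them. With total-count scaling 2369 were lower, and with the block and total counts together, an alternative chosen after seeing the data, 8244 were higher. Against a 1.5-fold threshold 2217 were called, 1820 higher and 397 lower, 257 of the latter at least 2-fold. Leaving out 1 library gave 8084 to 8642. The TIR1 effect (3962 genes) gave 7065 with the replicate block, 234 against 1.5-fold and 7072 with block and total counts, although its numbers did not pair the samples. The difference between lines (5224, of which 2762 higher and 2462 lower) gave 7983 with the block, with 4009 lower. It gave 1325 lower with total counts, 904 against 1.5-fold (693 and 211), and 8081 (5702 higher) with block and total counts. Of the named genes 233 were called, and 207 kept call and direction in every alternative but the 1.5-fold threshold; of 150 with a called difference between lines, 120 did. Beside the calls given with their lists above, the calls of Col9a2, Cyp51, Tcf7l1, Robo1, Pdk1, mt-Cytb and mt-Nd2 were lost with total-count scaling and without at least 1 library, those of Bak1, Zeb1 and mt-Nd1 with total-count scaling, those of Atp5s, Cox7a1, Ldhb, Ndufa4l2 and Pcdhga11 without at least 1 library, that of Nqo1 without treated replicate 1 (adjusted p = 0.051) and those of Pcdhgc3 (0.0617), Atp5s (0.0601) and Ldhb (0.106) with the groups compared alone. Only uncalled log2 fold changes changed sign. Smc1b ranged from -0.033 to 0.27 and Stag3 from -0.13 to 0.020 when 1 library was left out, with values for Smc1b of -0.028 without untreated replicate 1 and -0.0010 without treated replicate 2, and for Stag3 of 0.012 without untreated replicate 3. Stag3 was at 0.12 and Pds5b at 0.092 with total counts, and at 0.12 and 0.093 with block and total counts. Nipbl was at -0.0035 with the groups alone and -0.0032 in the block of 6 libraries. By summed exon length the shortest genes were 8.13% higher and 14% lower, in place of 16.7% and 18.9%. Among genes averaging 50 counts or more the neighbours in the same direction were 59.7% at 20 to 100 kb, 56.3% at 100 to 500 kb and 59.6% in all. In quintiles of the untreated mean the percent higher was 25.7, 29.4, 36.7, 24.7 and 12.3, and the percent lower 1.91, 7.98, 15.5, 26.9 and 48.7. The causes were not tested.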

Other observations

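Long noncoding and pseudogene classes differed in their shares of calls in the PDS5AB line. Protein-coding genes were 30.2% higher and 23.1% lower with auxin, lincRNA genes 25.0% and 8.34%, and processed pseudogenes 3.54% and 15.3%. Their median untreated levels were 17.8, 0.561 and 0.684 CPM. Over all genes, calls of lower genes were fewer at low levels, at 3.7% in the lowest quintile of mean CPM and 45.3% in the highest. Calls of higher genes did not follow that order, at 16.4% in the lowest, 33% in the second and 16% in the highest quintile. The part of level in the shares of these classes was not tested. The median log2 fold change of processed pseudogenes was -0.37 here and -0.38 in the TIR1 line. Processed pseudogenes share sequence with their parent genes, so their counts are uncertain.

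The composite ATF4 element was found in 2.99% of the promoters of all genes called lower and in 2.98% of those called higher, beside 2.82% of all genes tested. The core GCGTG of aryl hydrocarbon receptor sites lay in 5 of 8 promoters of the receptor's targets (62.5%), beside 52.5% of all genes tested.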
